A study of Homo sapiens with 23 samples.

Results

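The genes described here were 10 members of the NF-κB system, namely the 5 subunits of the transcription factor (NFKB1, NFKB2, RELA, RELB and REL), the inhibitors NFKBIA, NFKBIE and TNFAIP3, the inhibitor-of-apoptosis gene BIRC3, and the cytokine gene TNF. They were chosen by symbol through their NCBI Gene IDs, and all 10 were found among the 21658 genes measured. The measurements were RNA-seq expression values of 23 libraries from 4 established human ovarian cancer cell lines, Kuramochi, OVSAHO, OV-90 and EFO-21. The comparison asks which RNAs accompany acquired resistance to prexasertib, an inhibitor of the checkpoint kinase CHK1. In each line, a parental culture was set against a resistant one that had been raised by growth in stepwise increasing concentrations of the drug over a long period.

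There were 8 groups: parental and prexasertib-resistant Kuramochi, OVSAHO and EFO-21 with 3 libraries each, parental OV-90 with 2 libraries and resistant OV-90 with 3. Parental cells had not been through the drug escalation. The labels call the libraries biological replicates of 1 parental and 1 resistant form per line. Another, independently raised resistant form of a line was not among the groups, so a change in a line could belong to that resistant culture as much as to resistance. Whether a resistant form was a clone or a mixed population, and whether the drug was present when RNA was taken, is not given in the sources used here. Levels are on the authors' log2 scale after their quantile normalization, where 1 unit is a 2-fold step, and are not scaled per length, so each gene is compared only with itself across groups.

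NF-κB proteins work as dimers of these subunits. In resting cells the IκB proteins, among them those encoded by NFKBIA and NFKBIE, hold dimers in the cytoplasm. Signals such as TNF activate the IKK kinase complex, which marks IκB for destruction and frees the canonical dimer of RelA and p50, the processed product of NFKB1. The slower noncanonical branch runs through the kinase NIK, encoded by MAP3K14, and processes the NFKB2 product p100 into p52, the partner of RelB. The released dimers bind κB sites in DNA, and NFKBIA, NFKBIE, TNFAIP3 and BIRC3 are known targets whose products feed back on the pathway. Both branches are regulated largely at the protein level, which these RNA values do not measure.

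The κB sequences upstream of the members are shown because they are the elements through which the feedback is known to run. The 250 bases before the RefSeq start of each gene (promoter table of assembly GRCh38.p14) were searched on both strands for the 10-base κB consensus motif. Of the 10 members, 8 were matched in that table, and each of these 8 stretches matched the GRCh37 genome exactly once, which gave the coordinates printed here. The motif occurred in 5 of the 8, in NFKB1, REL, NFKBIA, TNFAIP3 and BIRC3, and not in the window of NFKB2, RELA or TNF. The share that held it was 9.57% among all 27305 promoters listed and 11.5% among the 14340 of measured genes. Each sequence is written 5′ to 3′ along the strand of its gene, with motif bases in capitals.
NFKB1, chr4:103422463-103422480, plus strand: cagtGGGAATTTCCagcc
REL, chr2:61108658-61108676, plus strand: ccgcGGGAAATTCCCctcc
NFKBIA, chr14:35874023-35874040, minus strand: gcttGGAAATTCCCcgag
TNFAIP3, chr6:138188325-138188354, plus strand: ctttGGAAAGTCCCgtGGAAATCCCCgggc
BIRC3, distal stretch, chr11:102188012-102188029, plus strand: tcatGGAAATCCCCgagt
BIRC3, proximal stretch, chr11:102188076-102188093, plus strand: cgctGGAGTTCCCCtaag
The motif bases lay upstream of the gene start in the GENCODE annotation on GRCh37 for NFKB1, NFKBIA, TNFAIP3 and BIRC3, and inside the annotated gene for REL. TNFAIP3 and BIRC3 carried separate motif matches within their windows, and the REL match spanned 11 bases because matches on both strands overlapped. These matches describe letters only, and binding was not measured.

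Read counts were not used here, so the depth behind the values is unknown. Profiles of the same group correlated at 0.971 to 0.988 across genes (Pearson's r), with 1 exception, the pair of parental OV-90 libraries, numbers 2 and 3, at 0.952. The highest correlation of library 3 with a library of another group was 0.949. The bottom of a library stands for the lowest 10% of its values, which ended between 1.70 and 1.87. Of the 8 listed ovarian carcinoma markers, EPCAM, KRT8, KRT18 and KRT19 were above the bottom of every library, while MUC16 and WT1 were at the bottom in 8 of the 23 libraries each, MSLN in 5 and PAX8 in 1. By the limma test described below, 23.6% of all genes rose and 23.3% fell in Kuramochi, and 17.1% and 16.2% in OVSAHO. The shares were 18.1% and 17.9% in OV-90, and 25% and 23.4% in EFO-21. Of these 8 markers, 8 fell in Kuramochi, 7 in OVSAHO, 3 in OV-90 and 5 in EFO-21, where 1 rose. Of 7 fibroblast markers 3 rose and 3 fell in Kuramochi, 2 and 2 in OVSAHO, 0 and 1 in OV-90 and 2 and 0 in EFO-21, and of 4 endothelial markers 1 and 2, 2 and 0, 0 and 2, and 1 and 1.

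Each line was tested alone with limma over all 21658 genes, and a gene rose or fell where the Benjamini-Hochberg adjusted two-sided p was under 0.05. In resistant Kuramochi, 1 of the 10 members rose (BIRC3) and 3 fell (NFKB1, RELB and TNF), where 23.6% of all genes rose and 23.3% fell. In OVSAHO 3 members rose (NFKB1, NFKBIA and BIRC3) against 17.1% of all genes, and 2 fell (NFKB2 and TNF) against 16.2%. In OV-90 0 members rose by limma (18.1% of all genes), and 4 fell (NFKB2, RELB, NFKBIE and BIRC3) against 17.9%. In EFO-21 1 member rose (NFKBIA) against 25% of all genes, and 5 fell (NFKB1, NFKB2, NFKBIE, BIRC3 and TNF) against 23.4%. At an unadjusted limma p under 0.05, 2 members were higher in OV-90 (RELA and TNFAIP3), 5 in OVSAHO, 1 in Kuramochi and 1 in EFO-21. The share of all genes at that unadjusted threshold is not given here.

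Of 40 member-by-line tests, 19 were past the threshold and 21 were not, and 12 of the 19 calls were kept whichever library of the line was left out. A change of at least 2-fold was reached by 3 members in Kuramochi (22.5% of all genes), 0 in OVSAHO (7.76%), 0 in OV-90 (16.1%) and 3 in EFO-21 (14.3%). Parental and resistant values did not overlap for 4 members in Kuramochi (59.2% of all genes) and 6 in OVSAHO (48.4%). In OV-90 this held for 9 members (69.1%) and in EFO-21 for 7 (59.7%), so groups without overlap were common in this table. The median change of the 10 members was -0.19 in Kuramochi, 0.20 in OVSAHO, -0.25 in OV-90 and -0.22 in EFO-21, where the median of all genes lay at -0.02, 0.00, -0.06 and 0.01. Apart from the falls in OV-90 and EFO-21, the counts of rising and falling members were within 2 members of what the background share would give. The plot of changes by member shows how far the lines parted for NFKB1, BIRC3 and TNF.

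**Figure D1:**
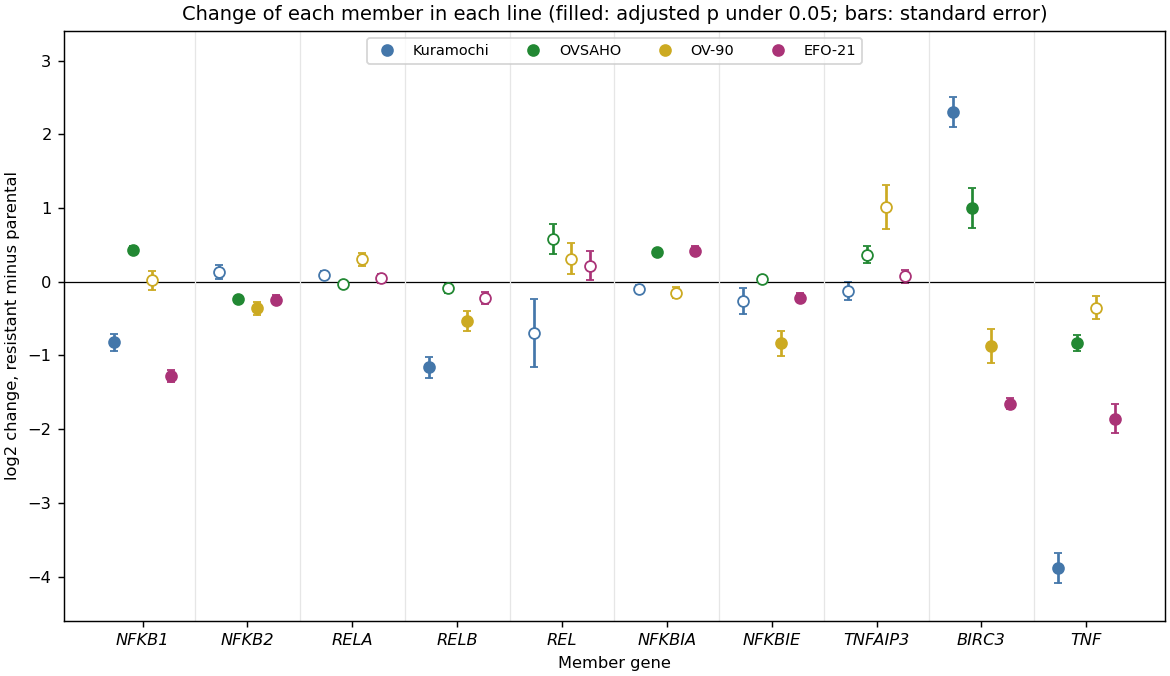
Log2 change, resistant minus parental (vertical axis), of each of the 10 member genes (horizontal axis) in Kuramochi, OVSAHO, OV-90 and EFO-21. Points are limma changes, bars are standard errors, and filled points had an adjusted p under 0.05. BIRC3 stood at 2.31 in Kuramochi and -1.65 in EFO-21, while TNF lay below 0 in all 4 lines.

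NFKB1 (ID 4790, chr4:103422487-103538459 in GRCh37), which encodes p105 and its product p50, fell in 2 lines and rose in 1. In EFO-21 the parental libraries were at 6.46, 6.35 and 6.48 and the resistant ones at 5.10, 5.15 and 5.19. The groups were far apart, and NFKB1 fell by 1.28 (SE 0.08, adjusted p = 0.000130), which is 2.43-fold. In Kuramochi the values were 7.07, 6.97 and 6.83 in parental and 6.24, 6.003 and 6.16 in resistant libraries, a fall by 0.82 (SE 0.11, adjusted p = 0.00160). OVSAHO went the other way, from 6.69, 6.77 and 6.81 to 7.15, 7.15 and 7.27, a rise of 0.43 (SE 0.06, adjusted p = 0.00400). In these 3 lines no resistant value overlapped a parental one, and the calls were kept without each library in turn. In OV-90 the parental libraries (6.56 and 6.83) and the resistant ones (6.81, 6.67 and 6.66) overlapped, with a change of 0.02 (SE 0.13, adjusted p = 0.911).

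The genes around NFKB1 on chromosome 4q24 were examined because its position was named when the gene was chosen. Among the 14 measured genes with starts within 2 Mb of its start, 12 fell and 0 rose in EFO-21, and their median change was -1.28, the same as that of NFKB1 itself. In Kuramochi 11 fell and 0 rose, with a median of -1.08. In OVSAHO, where NFKB1 rose, 3 neighbours rose and 1 fell (median -0.01), and in OV-90 1 rose and 4 fell (median -0.20). So in the 2 lines in which NFKB1 fell, most of its neighbours fell too, and the part of the neighbourhood in the NFKB1 values was not tested.

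The nearest genes upstream by start were SLC39A8, a zinc and manganese transporter at -70.1 kb, and BANK1, a B cell adaptor. SLC39A8 fell in all 4 lines, with changes of -2.18 in Kuramochi, -0.84 in OVSAHO, -1.09 in OV-90 and -2.29 in EFO-21 (adjusted p = 2.11e-05, 0.00496, 0.0153 and 2.58e-05 in that order), so it did not follow NFKB1 in OVSAHO. BANK1 fell by 4.22 in Kuramochi (adjusted p = 0.000162) and by 0.81 in EFO-21 (adjusted p = 0.0172). Downstream, the keratin pseudogene KRT8P46, whose reads can be shared with KRT8 and its other copies, had a change of -1.31 in EFO-21 (adjusted p = 0.0466) and 0.61 in OV-90 (adjusted p = 0.0476). MANBA, the lysosomal beta-mannosidase 259.7 kb away, fell by 1.07 in EFO-21 (adjusted p = 0.000269) and was at -0.20 in Kuramochi (adjusted p = 0.181). Between 367.6 and 697.1 kb downstream, UBE2D3, CISD2 and CENPE, chosen after their values were seen, fell in EFO-21, with changes of -1.20, -1.25 and -1.46.

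**Figure D2:**
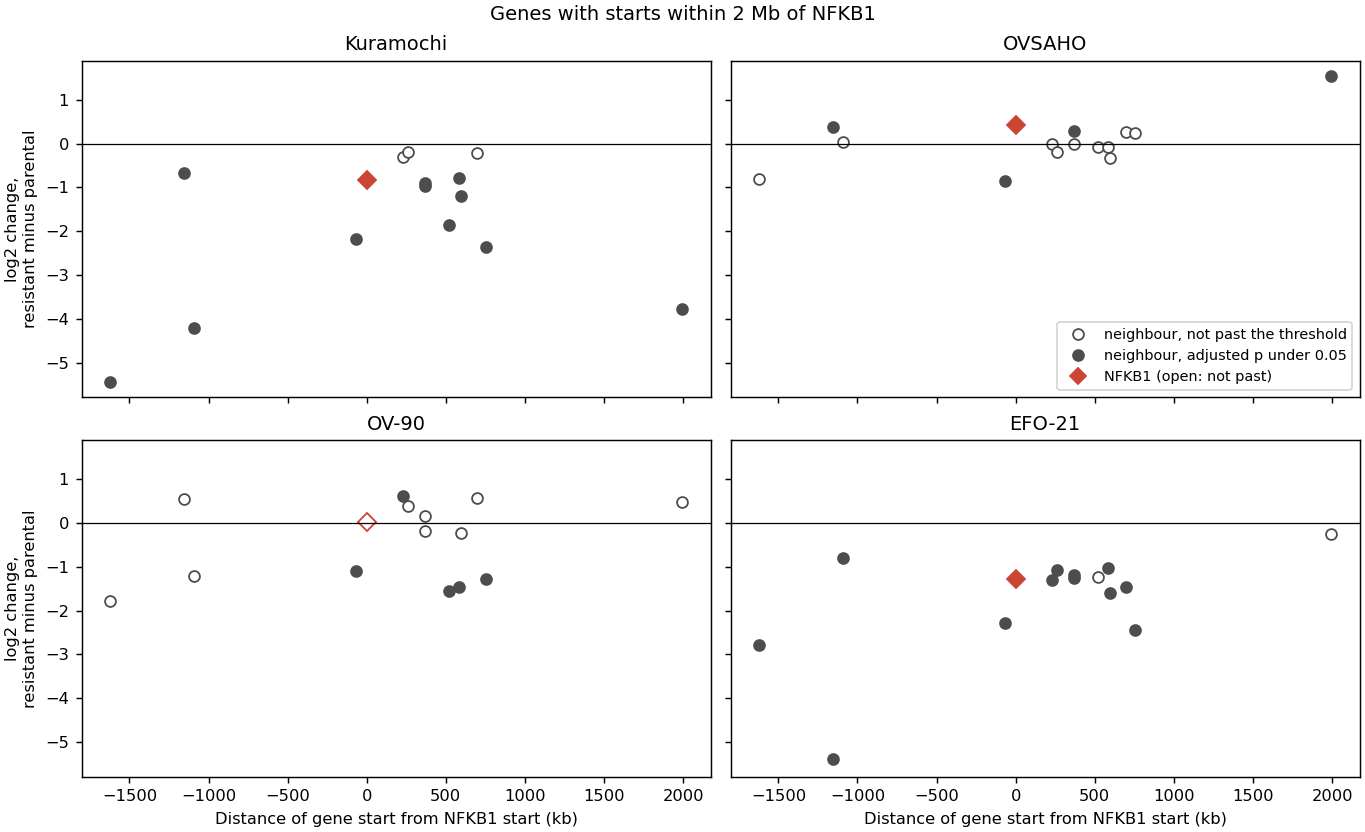
Log2 change, resistant minus parental (vertical axis), of NFKB1 (diamond) and the 14 genes with starts within 2 Mb (circles), by distance from the NFKB1 start in kb, in 1 panel per line. Filled symbols had an adjusted p under 0.05 (limma). In EFO-21 12 of the 14 neighbours fell and in Kuramochi 11 did, while in OVSAHO and OV-90 they lay on both sides of 0.

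The same window was set around each of the other members after the data were seen, and 3 examples, chosen after their values were seen, are given. BIRC3 fell in EFO-21 although 9 of the 19 genes within 2 Mb of it rose and 3 fell (median 0.50). TNFAIP3 was at 0.07 in EFO-21 while 12 of its 26 neighbours fell and 2 rose. Around NFKB2 in OVSAHO, 34 of 71 genes fell and 3 rose, with a median of -0.30 beside the NFKB2 change of -0.23.

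NFKB2 (ID 4791, chr10:104153867-104162281), the precursor of the noncanonical subunit p52, fell in 3 lines by small amounts. In OVSAHO it went from 8.73, 8.73 and 8.71 to 8.51, 8.45 and 8.50, a fall by 0.23 (SE 0.03, adjusted p = 0.00380). The OVSAHO libraries were so close together that a 1.17-fold difference was clear of their spread. In OV-90 the parental values 7.79 and 7.65 stood above the resistant values 7.31, 7.42 and 7.35, and NFKB2 fell by 0.36 (SE 0.09, adjusted p = 0.0384). In EFO-21 it moved from 7.10, 7.18 and 7.19 to 6.83, 6.97 and 6.93, a fall by 0.25 (SE 0.06, adjusted p = 0.0172). Only the OVSAHO call was kept without each library: the OV-90 call was lost without library 2, 13, 14 or 15 and the EFO-21 call without library 11 or 12. In Kuramochi parental (7.34, 7.57 and 7.62) and resistant values (7.64, 7.57 and 7.73) overlapped, with a change of 0.13 (SE 0.10, adjusted p = 0.302).

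RELB (ID 5971, chr19:45504719-45541450), the partner of p52, fell in Kuramochi and OV-90. The Kuramochi libraries were at 7.73, 8.02 and 8.23 in parental and 6.83, 6.74 and 6.92 in resistant cells, without overlap, a fall by 1.16 (SE 0.14, adjusted p = 0.000928) or 2.24-fold. The OV-90 libraries went from 8.18 and 7.79 in parental to 7.44, 7.50 and 7.42 in resistant cells, a fall by 0.53 (SE 0.14, adjusted p = 0.0402). The Kuramochi call was kept without each library, while the OV-90 call was lost without any 1 of the resistant libraries. Its size turned on the parental pair, with a change of -0.34 (adjusted p = 0.0331) without library 2 and -0.72 without library 3. EFO-21 had the lowest RELB of the lines, from 5.88, 5.87 and 5.86 in parental to 5.72, 5.57 and 5.66 in resistant libraries, a change of -0.22 (SE 0.08, adjusted p = 0.0697) that missed the threshold although the groups did not overlap. In OVSAHO the groups overlapped (7.76, 7.65 and 7.64 against 7.73, 7.55 and 7.51), with a change of -0.09 (SE 0.07, adjusted p = 0.407).

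RELA (ID 5970, chr11:65421070-65430561), the main activating subunit, was past the threshold in no line by limma. In OV-90 its resistant values 8.17, 8.21 and 8.25 were all above the parental 7.81 and 7.998, a change of 0.31 (SE 0.09, adjusted p = 0.0507). The change was 0.40 without library 3 and 0.21 without library 2, fits that each leave 1 parental library. Without resistant library 13, 14 or 15 the adjusted p was 0.143, 0.150 and 0.165, and with all lines in 1 fit it was 0.00112. In the other lines the RELA changes were 0.09 in Kuramochi, -0.04 in OVSAHO and 0.05 in EFO-21, and the groups overlapped. Unadjusted, RELA had a p under 0.05 in 1 of the 4 lines.

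REL (ID 5966, chr2:61108626-61158747), which encodes c-Rel, varied most between libraries of 1 group. In Kuramochi the parental values were 5.67, 4.45 and 4.29 and the resistant ones 4.17, 4.64 and 3.52, a change of -0.70 (SE 0.46, adjusted p = 0.256). Parental library 4 stood more than 1 unit above the other parental libraries, the groups overlapped, and without library 4 the change was -0.26. In OVSAHO the parental values 4.62, 4.90 and 5.27 met the resistant values 5.26, 5.61 and 5.67 at their edge, with a change of 0.58 (SE 0.21, adjusted p = 0.0769) that passed the threshold without library 9 (adjusted p = 0.0372). The change was 0.31 (SE 0.21, adjusted p = 0.280) in OV-90 and 0.22 (SE 0.20, adjusted p = 0.408) in EFO-21. REL rose or fell past the threshold in 0 lines by limma, with an unadjusted p under 0.05 in 1 of the 4.

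NFKBIA (ID 4792, chr14:35870285-35873955, minus strand), which encodes IκBα, the best known feedback inhibitor, rose in OVSAHO and EFO-21. OVSAHO went from 9.62, 9.63 and 9.61 to 9.96, 10.01 and 10.09, a rise of 0.40 (SE 0.04, adjusted p = 0.00128). EFO-21 went from 9.36, 9.51 and 9.30 to 9.86, 9.80 and 9.77, a rise of 0.42 (SE 0.06, adjusted p = 0.00227). Both rises were about the same size, 1.32- and 1.34-fold, without overlap, and were kept without each library. In EFO-21 NFKBIA rose while NFKB1, NFKB2, BIRC3 and TNF fell. Kuramochi, with the highest NFKBIA of the parental lines, had 10.23, 10.34 and 10.38 in parental and 10.22, 10.19 and 10.25 in resistant libraries, a change of -0.09 (SE 0.06, adjusted p = 0.215), and OV-90 had a change of -0.15 (SE 0.07, adjusted p = 0.153). Without Kuramochi library 4, NFKBIA fell there with an adjusted p of 0.0374.

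NFKBIE (ID 4794, chr6:44225903-44233525, minus strand), which encodes IκBε, fell in OV-90 and EFO-21. The OV-90 values were 8.39 and 7.96 in parental and 7.33, 7.49 and 7.19 in resistant libraries, a fall by 0.84 (SE 0.17, adjusted p = 0.0267). In EFO-21 they went from 7.06, 7.17 and 7.15 to 6.99, 6.87 and 6.86, a fall by 0.21 (SE 0.06, adjusted p = 0.0283). Neither pair of groups overlapped, but both calls were lost in some fits with a library left out. The OV-90 call was lost without any 1 of the resistant libraries 13, 14 and 15, where the change was -0.83, -0.91 and -0.76. The EFO-21 call was lost without library 11, 12, 23 or 24. OVSAHO values stayed between 8.41 and 8.58 in both groups, with a change of 0.03 (SE 0.05, adjusted p = 0.644), and in Kuramochi the change was -0.26 (SE 0.18, adjusted p = 0.264), which passed the threshold without library 4 (adjusted p = 0.0318).

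TNFAIP3 (ID 7128, chr6:138188351-138204451), which encodes the ubiquitin-editing enzyme A20, had its largest difference in OV-90. There the parental libraries were at 4.27 and 5.13 and the resistant ones at 5.82, 5.57 and 5.75, a change of 1.01 (SE 0.30, adjusted p = 0.0547). The resistant values were all higher, but the parental pair lay far apart. Without library 3 the change was 1.44 (adjusted p = 0.00739), and without library 2 it was 0.585 (adjusted p = 0.0707). Without resistant library 13, 14 or 15 the adjusted p was 0.159, 0.122 and 0.155, with all lines in 1 fit the adjusted p was 0.000135, and with a filter on low values it was 0.0327. In OVSAHO, with 6.36, 6.39 and 6.62 in parental and 6.65, 6.85 and 6.97 in resistant libraries, the change was 0.37 (SE 0.11, adjusted p = 0.0504), and it passed the threshold without library 9 (adjusted p = 0.0374) or 19 (adjusted p = 0.0362). The groups overlapped in Kuramochi, with a change of -0.12 (SE 0.12, adjusted p = 0.452), and in EFO-21, with a change of 0.07 (SE 0.09, adjusted p = 0.542).

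BIRC3 (ID 330, chr11:102188215-102210134) encodes cIAP2, a ubiquitin ligase of the TNF receptor complex and a classical NF-κB target. It was past the threshold in all 4 lines, upward in Kuramochi and OVSAHO and downward in OV-90 and EFO-21. Kuramochi went from 2.66, 2.52 and 2.39 to 4.57, 5.03 and 4.88, a rise of 2.31 (SE 0.20, adjusted p = 0.000282) or 4.94-fold from a low level. OVSAHO went from 2.61, 3.42 and 2.65 to 3.65, 4.04 and 3.97, a rise of 0.995 (SE 0.27, adjusted p = 0.0362). In OV-90 the values fell from 4.26 and 4.70 to 3.70, 3.54 and 3.59, by 0.87 (SE 0.23, adjusted p = 0.0417). EFO-21, whose parental BIRC3 was far above that of the other lines at 8.64, 8.51 and 8.51, had 6.87, 6.80 and 7.03 in resistant libraries, a fall by 1.65 (SE 0.07, adjusted p = 4.18e-05) or 3.15-fold. Even after this fall, resistant EFO-21 was above every group of the other lines in BIRC3. No groups overlapped in any line, and the Kuramochi and EFO-21 calls were kept without each library. The OVSAHO call was lost without library 7, 9, 19, 20 or 21 (adjusted p 0.0566 to 0.110) and the OV-90 call without library 3, 13, 14 or 15.

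TNF (ID 7124, chr6:31543342-31546113), the cytokine that starts the canonical branch and is itself a target, was lower in the resistant libraries of all 4 lines, with no overlap, and past the threshold in 3. Depending on the line, 48.4% to 69.1% of all genes had groups without overlap. In Kuramochi the parental libraries were at 4.58, 4.89 and 4.50 and the resistant ones at 0.62, 0.75 and 0.95, and TNF fell by 3.88 (SE 0.21, adjusted p = 4.33e-05). The resistant values were at the bottom of their libraries, so the size of this difference is not a measured fold change. In EFO-21 TNF fell from 2.38, 2.68 and 2.38 to 0.88, 0.66 and 0.31, by 1.86 (SE 0.19, adjusted p = 0.000710), again to the bottom. OVSAHO had the highest TNF, with 6.55, 6.78 and 6.69 in parental and 5.74, 6.02 and 5.77 in resistant libraries, all far above the bottom, and a fall by 0.83 (SE 0.11, adjusted p = 0.00310) or 1.78-fold. In OV-90 TNF was at or near the bottom in both groups, at 1.84 and 1.73 in parental and 1.39, 1.47 and 1.43 in resistant libraries, with a change of -0.35 (SE 0.15, adjusted p = 0.132).

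The 3 TNF calls were kept without each library. With genes of low mean left out, TNF was dropped, so OVSAHO then had 1 falling member. Because TNF is also made by leukocytes, the 8 leukocyte markers are given beside it, although all libraries came from cultured ovarian cancer lines. In OVSAHO 6 of the 8 fell and 0 rose, and their summed level was 8.11 to 8.70 in parental and 7.25 to 7.32 in resistant libraries. In Kuramochi 1 rose and 2 fell (7.95 to 8.76 against 7.88 to 8.16), and in OV-90 1 rose and 1 fell (11.91 to 12.46 against 12.47 to 12.52). In EFO-21 2 rose and 3 fell (9.46 to 9.59 against 10.19 to 10.30). Among all genes 16.2% fell in OVSAHO, 23.3% in Kuramochi, 17.9% in OV-90 and 23.4% in EFO-21. The summed level is weighted toward the highest gene. That was LYZ in OV-90 (parental mean 12.06, resistant 12.43, adjusted p = 0.202) and CD68 in EFO-21 (8.45 and 9.72), where PTPRC, CD14 and LYZ fell. CD3E was at the bottom in 14 of the 23 libraries, LAPTM5 in 12, and PTPRC and LYZ in 4 each, while CD14, CD68 and CORO1A were at the bottom in 0, and the part of these genes in the TNF result was not tested. In a bulk library, fewer cells that make an RNA and less of that RNA per cell cannot be told apart.

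**Figure D3:**
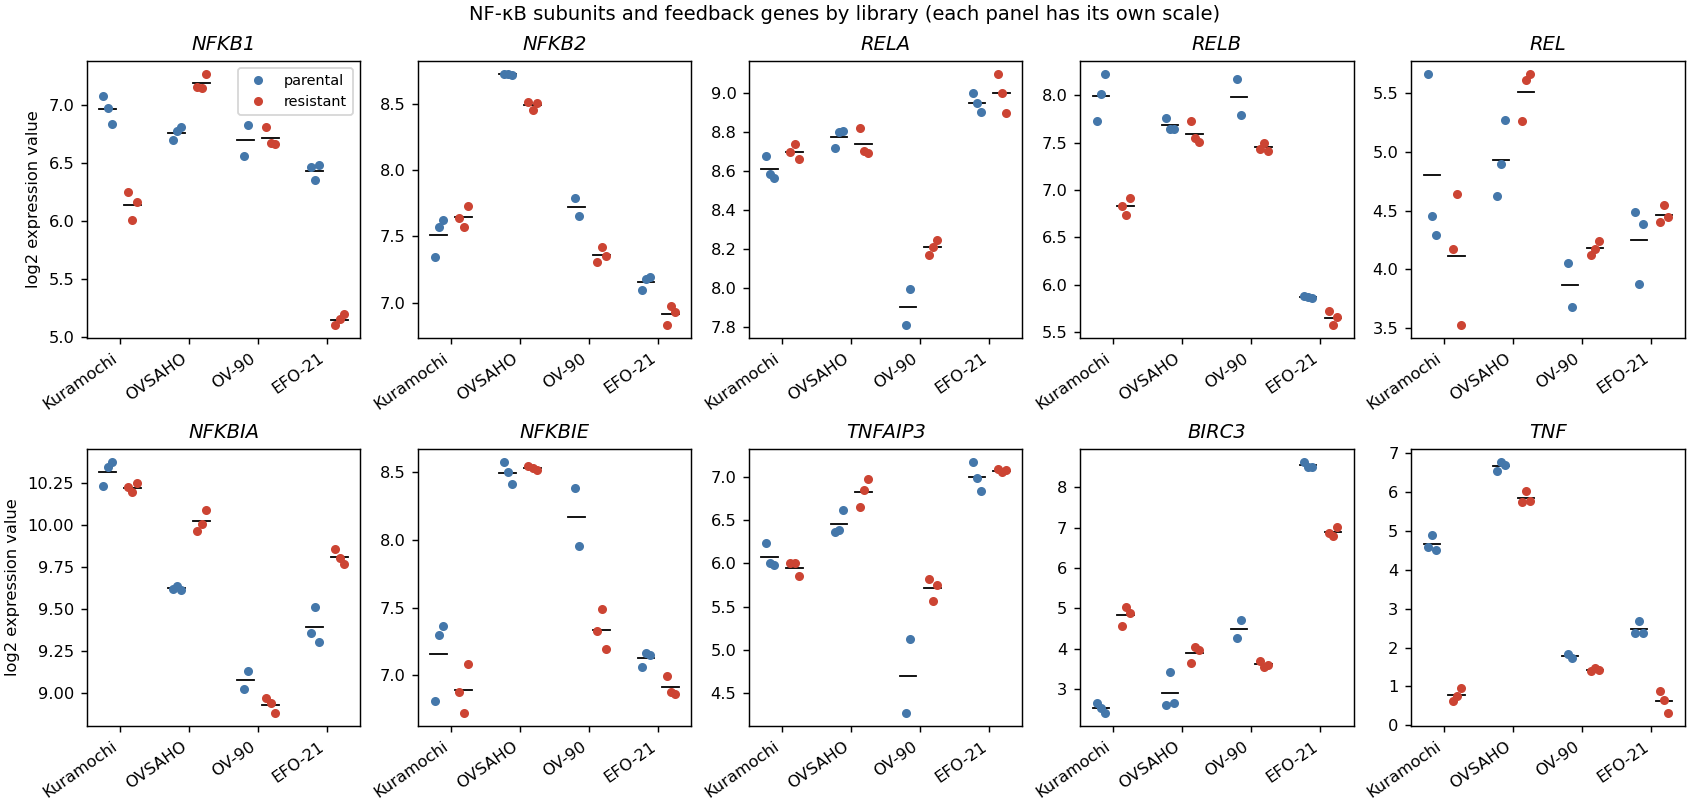
Log2 expression value (vertical axis, with its own scale in each panel) of the 10 members in each of the 23 libraries, by line. Blue points are parental and red points resistant libraries, and black bars are group means. TNF was lower in resistant libraries of every line, and BIRC3 moved toward higher values in Kuramochi and OVSAHO and toward lower values in OV-90 and EFO-21.

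Whether a member changed differently between lines was tested in 1 limma fit of all 23 libraries, with a moderated F test that the 4 changes are equal. It was past the threshold for 9 of the 10 members, and for 75.1% of all genes, so such a difference was common in this table. The strongest were BIRC3 (adjusted p = 2.01e-09), NFKB1 (adjusted p = 4.49e-09) and TNF (adjusted p = 6.79e-09), and REL was not past it (adjusted p = 0.0634). Without parental OV-90 library 2 the F test was lost for RELA (adjusted p = 0.126) and NFKBIE (adjusted p = 0.0535), and REL passed it without library 5, 6, 9 or 17 (adjusted p 0.0228 to 0.0481). EFO-21 was also set against the mean of the other 3 lines, a contrast chosen with earlier results of these data known. NFKB1 was lower by that contrast, by 1.16 (SE 0.10, adjusted p = 6.29e-08), as was BIRC3, by 2.46 (SE 0.22, adjusted p = 7.79e-08). NFKBIA was higher, by 0.37 (SE 0.06, adjusted p = 0.000176), although its change was 0.40 in OVSAHO and 0.42 in EFO-21. RELB was higher by 0.37 (SE 0.13, adjusted p = 0.0238) without a rise in EFO-21. Its change was -0.22 there, -1.16 in Kuramochi, -0.53 in OV-90 and -0.09 in OVSAHO. NFKB1, BIRC3, NFKBIA and RELB were 4 of the 10 members, beside 42.2% of all genes. The EFO-21 contrast of RELB was lost without library 22 (adjusted p = 0.0662), and that of TNFAIP3, at -0.35 with all libraries (adjusted p = 0.142), passed without library 3 (adjusted p = 0.00478). For TNF the EFO-21 contrast was -0.17 (SE 0.21, adjusted p = 0.540).

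Parental levels of the members already differed between the lines, and they are given as a description. BIRC3 spanned 6.03 log2 units between group means, from 2.52 ± 0.13 (SD, n = 3) in Kuramochi to 8.55 ± 0.07 (SD, n = 3) in EFO-21, and the Kuramochi and OVSAHO libraries overlapped. TNF spanned 4.89, in the order OVSAHO, Kuramochi, EFO-21 and OV-90, with no overlap between neighbours. TNFAIP3 spanned 2.30, from EFO-21 down through OVSAHO and Kuramochi to OV-90, and RELB 2.13, with Kuramochi and OV-90 overlapping at the top and EFO-21 lowest. NFKB2 was highest in OVSAHO and lowest in EFO-21 (span 1.57). NFKBIE had the span 1.37 with OVSAHO highest and Kuramochi overlapping EFO-21, and NFKBIA the span 1.24, in the order Kuramochi, OVSAHO, EFO-21 and OV-90. RELA ran from EFO-21 to OV-90 over 1.05 units, and for REL, with a span of 1.07, every neighbour in the order overlapped the next. NFKB1 differed least, by 0.53, from Kuramochi to EFO-21, with OVSAHO and OV-90 overlapping. EFO-21 thus had the highest parental BIRC3, TNFAIP3 and RELA and the lowest NFKB1, NFKB2 and RELB, and shared the lowest NFKBIE with Kuramochi.

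The other genes of the pathway were grouped by role in 5 lists, whose counts are given without a test of the list. Among all genes, 23.6% rose and 23.3% fell in Kuramochi, 17.1% and 16.2% in OVSAHO, 18.1% and 17.9% in OV-90, and 25% and 23.4% in EFO-21. Of 7 other IκB proteins and nuclear partners, 4 rose and 2 fell in Kuramochi, 1 and 2 in OVSAHO, 2 and 2 in OV-90, and 1 and 4 in EFO-21. NFKBIZ, a nuclear IκB protein, rose in OV-90 by 1.99 (adjusted p = 0.0210), in Kuramochi by 0.96 (adjusted p = 0.00277) and in OVSAHO by 0.62 (adjusted p = 0.0351), and fell in EFO-21 by 0.58 (adjusted p = 0.00208). The changes of NFKBIB, another IκB gene of this list, were -0.83 in Kuramochi, -0.62 in OVSAHO and -0.62 in OV-90. All of these were falls past the threshold without overlap, while its EFO-21 groups overlapped (change -0.03). BCL3, a partner of the p50 and p52 dimers, rose in Kuramochi by 0.82 (adjusted p = 0.00130) and fell in EFO-21 by 0.89 (adjusted p = 0.00116). COMMD1, which promotes the breakdown of RelA, fell in OV-90 by 1.29 (adjusted p = 0.0254).

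Of 13 genes of the IKK complex and its upstream kinases, 6 rose and 3 fell in Kuramochi, 1 and 3 in OVSAHO, 6 and 3 in OV-90, and 2 and 6 in EFO-21. MAP3K14, the NIK kinase, rose in Kuramochi by 1.69 (SE 0.07, adjusted p = 2.27e-05), where RELB fell. IKBKG, the regulatory IKK subunit NEMO, rose there by 1.17 (adjusted p = 0.00143). TAB2, an adaptor of the TAK1 kinase, fell in EFO-21 by 1.15 (adjusted p = 2.39e-05) and rose in OV-90 by 0.97 (adjusted p = 0.0246), where the related TAB3 rose by 1.39 (adjusted p = 0.0400). IKBKE, of the same list, fell, with changes of -1.05 in OV-90 (adjusted p = 0.0210) and -0.40 in OVSAHO (adjusted p = 0.00596). Of 20 adaptors, ubiquitin ligases and brakes, 6 rose and 3 fell in Kuramochi, 3 and 2 in OVSAHO, 5 and 4 in OV-90, and 6 and 6 in EFO-21. TRAF1, a binding partner of cIAP2, rose in Kuramochi by 2.67 (adjusted p = 0.000119), as BIRC3 did, and the deubiquitinase gene CYLD, a brake on the pathway, by 1.30 (adjusted p = 0.000333). TRAF1 also rose in EFO-21, by 0.79 (adjusted p = 0.00710), where BIRC3 fell. Its change was 0.07 in OVSAHO (adjusted p = 0.787), where BIRC3 rose, and -0.85 in OV-90 (adjusted p = 0.0594), where BIRC3 fell. ZC3H12A, an RNase that limits cytokine RNAs, fell in EFO-21 by 1.73 (adjusted p = 3.90e-05), and TNIP1, a partner of A20, by 1.01 (adjusted p = 1.79e-05).

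Among 19 ligands and receptors that signal to NF-κB, 4 rose and 6 fell in Kuramochi, 3 and 2 in OVSAHO, 1 and 6 in OV-90, and 5 and 8 in EFO-21. LTB, a TNF family ligand encoded beside TNF, went from 7.06 to 7.54 in parental Kuramochi libraries to 0.84 to 1.01, the bottom, in resistant ones (adjusted p = 8.36e-06). IL1B, the interleukin-1β gene, went the other way there, from 1.05 to 2.82 in parental libraries, of which 2 were at the bottom, to 5.34 to 5.61 in resistant ones (adjusted p = 0.00114). In OV-90 LTB fell by 1.55 (adjusted p = 0.0192) and TNFRSF21 rose by 1.69 (adjusted p = 0.0236). IL1R1, the interleukin-1 receptor, fell in Kuramochi by 3.59 (adjusted p = 0.000105) and to the bottom in EFO-21 (adjusted p = 7.24e-05), and TNFRSF11A, the receptor RANK, rose in EFO-21 by 2.02 (adjusted p = 0.000245).

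Of 25 textbook target genes 23 were measured, and 10 rose and 5 fell in Kuramochi, 5 and 4 in OVSAHO, 2 and 7 in OV-90, and 3 and 11 in EFO-21. Their median change was 0.37 in Kuramochi, -0.04 in OVSAHO, -0.16 in OV-90 and -0.23 in EFO-21. The cytokine gene IL6 rose in Kuramochi by 2.25 (adjusted p = 6.63e-05) and the adhesion gene VCAM1 by 2.13 (adjusted p = 0.000446), while the chemokine gene CCL20 fell there by 4.16 (adjusted p = 4.26e-05). In EFO-21 the matrix protease gene MMP9 fell by 3.06 (adjusted p = 3.98e-05) and SOD2, the mitochondrial superoxide dismutase, by 2.32 (adjusted p = 1.79e-05). VCAM1 rose in EFO-21 as well, from 0.09 to 0.78 in parental to 1.78 to 2.22 in resistant libraries (adjusted p = 0.00203). In 4 of these libraries it was at the bottom. In OV-90 MMP9 fell from 4.48 to 5.22 in parental to 1.63 to 2.82 in resistant libraries (adjusted p = 0.0208), and the chemokine gene CXCL1 fell by 1.47 (adjusted p = 0.00424). SDC4 rose there by 1.34 (adjusted p = 0.0199). In OVSAHO the chemokine gene CX3CL1 fell by 1.64 (adjusted p = 0.00176), CCL5 fell from 2.79 to 5.52 to the bottom (adjusted p = 0.00970), and CCL2 rose by 0.87 (adjusted p = 0.00138).

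**Figure D4:**
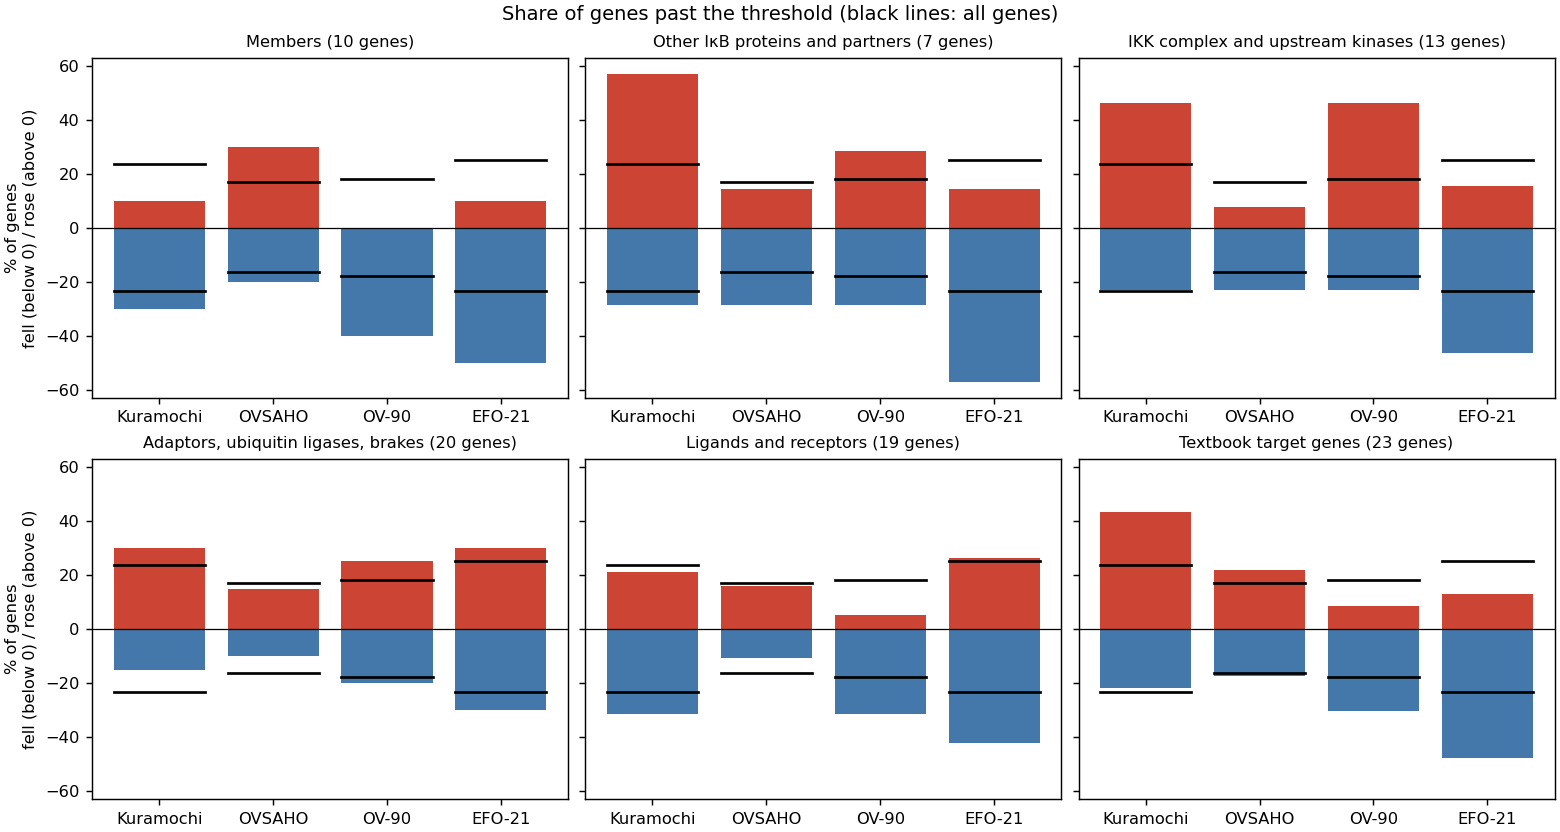
Share of genes in percent (vertical axis) that rose (above 0, red) or fell (below 0, blue) past an adjusted p of 0.05 in each line, for the 10 members and 5 lists of other pathway genes. Black lines mark the share of all 21658 genes. In EFO-21 5 of 10 members and 11 of 23 textbook targets fell, against 23.4% of all genes, and in Kuramochi 10 of those 23 targets rose, against 23.6%.

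For each member called in at least 2 lines, the 3 genes with the most similar values over the 23 libraries were found among genes above the median mean. The libraries fall into 8 groups, so these correlations largely describe the 8 group levels. NFKB1 was most like UBE2D3 (r = 0.96), METTL14 (r = 0.95) and METAP1 (r = 0.94), all on chromosome 4. Its neighbour UBE2D3 lies 367.6 kb away, while METTL14 starts at 119606547 and METAP1 at 99916810 in GRCh37. BIRC3 was most like ADI1, PGRMC2 and the keratin pseudogene KRT8P12 (r = 0.95 each), and TNF like IFT52 (r = 0.98), ADSL and USF2 (r = 0.95 each). For RELB they were ACP2 (r = 0.99), ZC3HC1 and NOP53, for NFKB2 GTF2IRD1 (r = 0.99), RPS13 and its pseudogene RPS13P8, for NFKBIA C1orf216 (r = 0.96) and SLIT3, and for NFKBIE COMTD1 (r = 0.98), GRK6 and the pseudogene PRELID1P5. Of the genes named for the other 6 members, 1 lay on the chromosome of its member, NOP53, which like RELB is on chromosome 19, and RPS13P8 had no position here.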

How the data were processed

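Total RNA of 23 cultures was sequenced by the authors as TruSeq Stranded mRNA libraries with paired ends. The authors used the GRCh37/hg19 genome and summarised reads per gene, without poorly covered exons. The table marks 16448 genes as values of a robust linear model and 5210 as means of log2 exon values. The deposited values are log2 expression values, quantile normalized by the authors, for 21658 NCBI Gene IDs. After this step all libraries have nearly the same distribution, and a change in the same direction in most genes would be hidden. Of these IDs 20745 (95.8%) matched a symbol, and all 10 members had values from the robust linear model. The annotation release, and whether counting used the strand, are not given in the sources used here. No read counts were used, so depth is unknown and errors rest on the spread within groups. Columns named line and resistance and carried library numbers (2 to 24) without a replicate number, so each column was tied only to its group, and 0 columns belonged to other samples.

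Each line was tested with limma 3.58.1 in R 4.3.3 (lmFit, eBayes with a mean-variance trend, two-sided, Benjamini-Hochberg adjustment over all genes), without pseudocount or filter, a choice made here because the paper names no test for this comparison. Differences between lines used 1 fit with 8 group means. An exact permutation test of 3 against 3 libraries cannot go below p = 0.1, or of 2 against 3 below 0.2, so none was run. The code was tested on simulated data. Alternatives were 1 fit of all lines, no trend, a filter at the 25th percentile of gene means, recentred medians, a 2-fold threshold, and leaving out each library. Positions came from GENCODE lifted to GRCh37. The members, pathway lists and marker lists were chosen with earlier results of these data known. Besides the members, the genes named were some of the up to 3 per list and line with the largest change past the threshold without overlap, the 2 nearest NFKB1 on either side, and the 3 most correlated genes, of which 1 is not reported here.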

Additional observations from a re-analysis of the deposited data

Results flagged for a closer look

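For 9 of the 10 members the change between parental and resistant libraries differed between the 4 lines in limma's moderated F test, as it did for 75.1% of all genes. The gap between the highest and the lowest change was 3.96 for BIRC3 (Kuramochi against EFO-21, adjusted p = 2.01e-09), 3.53 for TNF (OV-90 against Kuramochi, adjusted p = 6.79e-09) and 1.71 for NFKB1 (OVSAHO against EFO-21, adjusted p = 4.49e-09). The TNF gap includes values at the bottom of the libraries. For TNFAIP3 it was 1.13 (OV-90 against Kuramochi, adjusted p = 0.00205), for RELB 1.08 (OVSAHO against Kuramochi, adjusted p = 2.88e-05) and for NFKBIE 0.87 (OVSAHO against OV-90, adjusted p = 0.00498). NFKBIA had a gap of 0.57 (EFO-21 against OV-90, adjusted p = 2.82e-06), NFKB2 of 0.49 (Kuramochi against OV-90, adjusted p = 0.00158) and RELA of 0.34 (OV-90 against OVSAHO, adjusted p = 0.0181). No cause of these differences was tested.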

How the results depend on the processing

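Of the 40 changes, 0 turned direction with a call, and recentring the libraries changed 0 calls. With the weakly expressed genes left out, 5 members rose and 1 fell in OVSAHO (REL and TNFAIP3 were gained, TNF was not tested) and 1 rose in OV-90. In 1 fit of all lines 2 rose in OV-90 (RELA and TNFAIP3), and NFKBIE in EFO-21 was not past the threshold (adjusted p = 0.207). Without the trend 2 fell in OV-90, where NFKB2 (adjusted p = 0.0605) and RELB (adjusted p = 0.0568) were lost, and RELB in EFO-21 was gained (adjusted p = 0.0291). At 2-fold or more, 0 rose and 0 fell in OVSAHO, 0 fell in OV-90, and 0 rose and 3 fell in EFO-21. With each library left out in turn, the members that fell numbered 3 to 5 in Kuramochi (5 without library 4), 0 to 3 in OV-90 (0 without library 13, 14 or 15) and 3 to 5 in EFO-21 (3 without library 11 or 12), and those that rose in OV-90 numbered 0 to 2 (2 without library 3). In OVSAHO the rise of BIRC3 was lost without library 7, 9, 19, 20 or 21. REL and TNFAIP3 were gained there as rises without library 9, and TNFAIP3 also without library 19. Where an OV-90 parental library was left out, the remaining one was assumed to vary like the resistant group. The test that the changes differ between lines kept its side of the threshold without the trend and with the filter in every member tested. No paired analysis was possible because the columns carry no replicate number. Without counts, detection limits are unknown, and the OV-90 comparison rests on 2 parental libraries. The cause of each lost or gained call was not tested.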
